A study of Homo sapiens with 38 samples.

Results

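Ras-induced senescence was compared with quiescence in low serum in IMR90 cells, a line of normal human lung fibroblasts, to set a permanent arrest beside a reversible one. The comparison was defined by the array labels alone and took 12 of the 38 arrays of the series. Senescent cells contributed 6 arrays, which were 2 each of cells with the empty MLP vector, with a short hairpin RNA against p107 (shp107) and with one against p130 (shp130), all of them labelled as senescent after ras. Low-serum cells contributed 6 arrays of the same 3 kinds of cell kept in 0.1% fetal bovine serum (FBS). The general medium held 10% FBS, and which serum the senescent cells had is not stated beyond that. None of the 12 carried a hairpin against RB, so RB was not targeted in either arm. All arms share the line, the vector backbone and experiment 1, and differ in ras as well as in serum. Neither the length of the arrest nor the form of ras is stated in the labels. Growing and confluent cells of the same 3 kinds, and cells with the RB hairpin (shRB), are used below for comparison only.

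Quiescent cells leave the cell cycle when growth factors are withdrawn and return when these are restored. Senescent cells stay arrested although mitogenic signals are present, and ras does this in normal fibroblasts by driving the cells into a stress response that engages the p16 and p53 pathways. RB and its relatives p107 and p130 bind E2F factors and repress genes for DNA synthesis and mitosis. Senescent fibroblasts are also known for secreting cytokines, chemokines and matrix proteases and for a reorganised nuclear lamina and chromatin.

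The values are log2 expression values, 1 per gene and array. A gene is described by the lowest, median and highest of its 6 senescent and its 6 low-serum values, and then by the difference of means, senescent minus low serum, with its standard error (SE) and the adjusted p of a limma fit that holds hairpin as a block (n = 6 arrays in each arm). A difference of 1 on this scale is 2-fold. Whether the 2 replicates of a kind were grown separately is not stated, and a p-value therefore reflects the spread between these arrays alone, which may be technical. Array medians over all probe sets lay between 3.3 and 3.39 and a level close to them is at background, so that a change against it may be understated.

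Replicate arrays correlated with r from 0.960 to 0.990 over the genes tested. The first principal component, with 77% of the variance, separated the 2 states. Senescent shp107 replicate 2 stood apart along the second, which held 9.3%, and the SD of the difference between the 2 senescent shp107 arrays was 0.659, against 0.328 to 0.481 for the other 5 pairs. Counts over all genes are therefore also given without that array, and list counts where they move by over 1.5 times. HRAS had values of 8.65, 8.78 and 9.02 in senescent arrays, against 6.94, 7.17 and 7.33 in low-serum arrays, so the arms did not overlap, with a difference of 1.66 ± 0.11 (adjusted p = 9.31e-08). In growing cells HRAS lay between 7.95 and 8.80, which overlaps the senescent range. RBL2, which encodes p130, had values of 4.75 and 4.64 in the senescent shp130 arrays and 5.32 and 5.86 in the low-serum shp130 arrays, below every MLP and shp107 array of either state. RBL1, which encodes p107, was close to background, at 3.16, 3.33 and 3.47 in senescent arrays, against 2.95, 3.75 and 4.65 in low-serum arrays. All 11 fibroblast markers were measured above the filter. Of 9 epithelial markers only keratin 18, KRT18, passed it, of 8 endothelial markers TEK and CLDN5 did, and of 7 blood cell markers with a probe set none did. KRT18 was higher on average in senescent arrays, with overlapping arms (7.08, 7.81 and 8.42 in senescent arrays, against 5.53, 6.37 and 7.43 in low-serum arrays, a difference of 1.38 ± 0.37, adjusted p = 0.00683), and the other 8 epithelial markers stayed at or below 4.06 on all 12 arrays.

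Of 8511 genes tested, 5008 differed at an adjusted p under 0.05, which is 58.8%. With so many calls a call by itself says little about a list, so lists are described by members that also changed at least 2-fold, and their counts of genes that rose or fell mean changes of that size. A list share near those of all genes, given next, is no result about the list. There were 2173 such genes, or 25.5%, with 835 higher in senescent cells (9.81%) and 1338 lower (15.7%). At any size, 24.5% were called higher and 34.3% lower. The 6 senescent and 6 low-serum values did not overlap in 37% of all tested genes, and in 1946 of the 2173 called at least 2-fold. For a gene named for a large change, a lack of overlap therefore adds little. The median difference of all tested genes was -0.10. It was 0.02 after quantile normalization and 0.10 with equal array medians, and the 2-fold counts then became 1044 higher and 1144 lower, and 1131 higher and 1082 lower. Equal array medians means here and below that the medians of the tested genes, not of all probe sets, were made equal. The excess of lower genes thus depends on the scaling, and changes near these median differences have no firm direction. Without senescent shp107 replicate 2 the counts were 867 higher and 1364 lower. At 16-fold or more, 75 genes were higher and 83 lower.

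**Figure D1:**
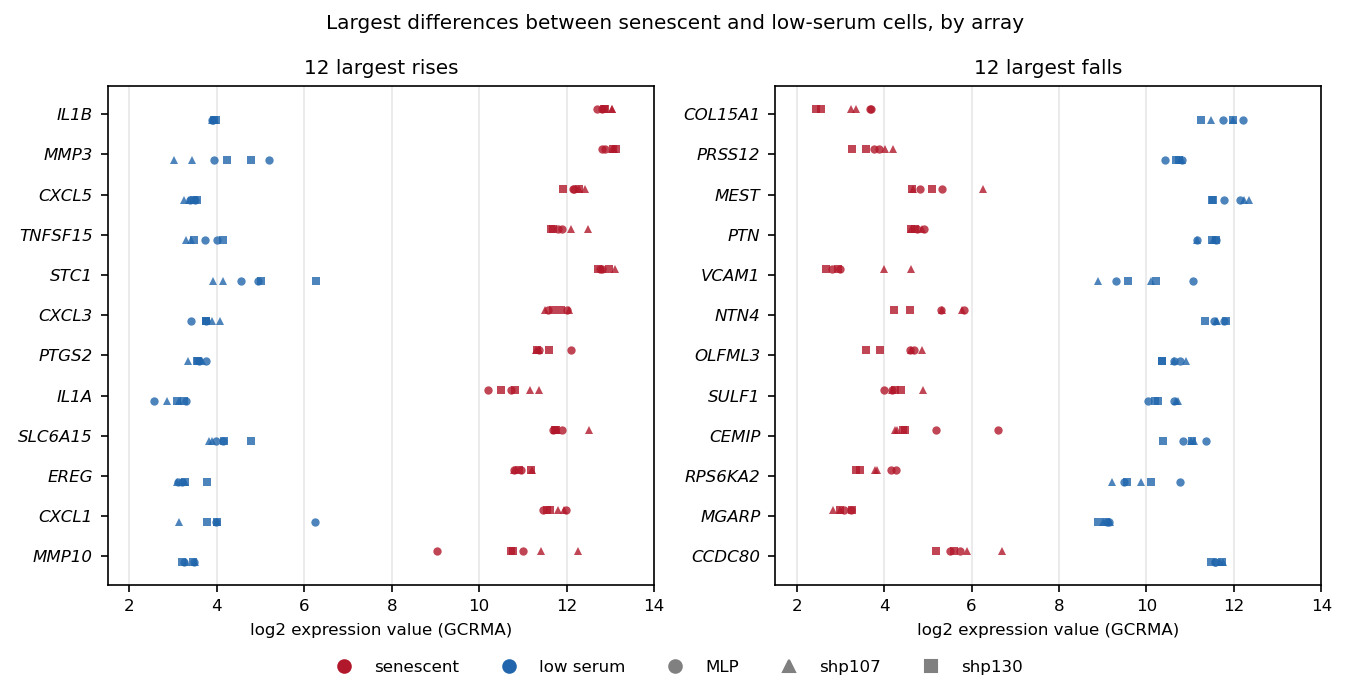
Log2 expression values (x axis) of the 12 genes with the largest rises (left) and the 12 with the largest falls (right) in senescent against low-serum cells. Each symbol is 1 array, red for senescent and blue for low serum, with the shape giving the hairpin. The 24 genes were chosen among called genes whose 2 states do not overlap.

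Several of the largest rises were in genes for secreted factors. The inflammatory cytokine IL1B had values of 12.69, 12.86 and 13.04 in senescent arrays, against 3.89, 3.92 and 3.99 in low-serum arrays, a difference of 8.95 ± 0.10 (adjusted p = 8.71e-15). The low-serum values were at background and every senescent value was near the top of the scale. Stromelysin MMP3, a matrix protease, had values of 12.81, 13.05 and 13.12 in senescent arrays, against 3.03, 4.08 and 5.20 in low-serum arrays and differed by 8.90 ± 0.27 (adjusted p = 6.29e-11). STC1, which encodes the secreted glycoprotein stanniocalcin, had values of 12.71, 12.81 and 13.11 in senescent arrays, against 3.92, 4.75 and 6.27 in low-serum arrays, a difference of 8.06 ± 0.28. The states lay far apart in both genes, although low-serum arrays varied by over 2 log2 units. TNFSF15, a TNF-family ligand, differed by 8.26 ± 0.19, PTGS2, the inducible cyclooxygenase, by 7.94 ± 0.14, and SLC6A15, a neutral amino acid transporter, by 7.76 ± 0.19. MMP10, stromelysin 2, spread over more than 3 log2 units among senescent arrays, with values of 9.04, 10.89 and 12.27 in senescent arrays, against 3.21, 3.37 and 3.49 in low-serum arrays and a difference of 7.51 ± 0.34.

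The 12 largest falls were in genes of mixed function. COL15A1, a basement membrane collagen, had values of 2.44, 3.30 and 3.69 in senescent arrays, against 11.24, 11.87 and 12.21 in low-serum arrays, a difference of -8.61 ± 0.18 (adjusted p = 1.64e-12), and all 6 senescent arrays were at background. PRSS12, which encodes the serine protease neurotrypsin, had values of 3.27, 3.82 and 4.20 in senescent arrays, against 10.42, 10.75 and 10.82 in low-serum arrays, a difference of -6.92 ± 0.13, and the imprinted gene MEST 4.63, 4.95 and 6.26 in senescent arrays, against 11.49, 11.95 and 12.35 in low-serum arrays, a difference of -6.79 ± 0.23. The arms of these 3 genes did not overlap, which the choice of the 12 required. PTN, which encodes the heparin-binding growth factor pleiotrophin, had values of 4.61, 4.72 and 4.91 in senescent arrays, against 11.15, 11.52 and 11.60 in low-serum arrays, a difference of -6.68 ± 0.13. VCAM1, an adhesion molecule for leukocytes, had values of 2.66, 2.97 and 4.62 in senescent arrays, against 8.88, 9.84 and 11.07 in low-serum arrays and differed by -6.52 ± 0.39. In both, too, every senescent array was below every low-serum array, again as the choice required. The laminin-related gene NTN4 differed by -6.44 ± 0.20, the secreted glycoprotein gene OLFML3 by -6.23 ± 0.14, the heparan sulfatase SULF1 by -6.10 ± 0.15 and the hyaluronan-degrading CEMIP by -6.08 ± 0.28. The last were the ribosomal S6 kinase RPS6KA2 (-6.03 ± 0.22), the mitochondrial protein gene MGARP (-6.0 ± 0.11) and the secreted matrix protein gene CCDC80 (-5.86 ± 0.17).

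All 6 tested CDK inhibitor genes differed between the states, beside 58.8% of all tested genes. The change was at least 2-fold in 3 of the 6 in the probe set used, and not in 1 direction. CDKN2B, which encodes the CDK4 and CDK6 inhibitor p15, had values of 10.21, 10.74 and 11.39 in senescent arrays, against 7.40, 7.92 and 8.47 in low-serum arrays, a difference of 2.78 ± 0.16 (adjusted p = 2.51e-08). CDKN1A, which encodes p21, a p53 target, had values of 11.57, 12.04 and 12.60 in senescent arrays, against 10.21, 10.67 and 11.0 in low-serum arrays, a difference of 1.40 ± 0.14 (adjusted p = 2.41e-06). CDKN1B, which encodes p27, the inhibitor that accumulates in quiescent cells, had values of 6.14, 7.17 and 7.75 in senescent arrays, against 10.25, 10.55 and 10.74 in low-serum arrays, a difference of -3.44 ± 0.21 (adjusted p = 3.08e-08). For these 3 genes the arms did not overlap, with p15 and p21 higher and p27 lower in senescent cells. CDKN2A, the shared gene of p16 and ARF, had values of 8.35, 9.18 and 9.37 in senescent arrays, against 7.98, 8.28 and 8.61 in low-serum arrays and rose by less than 2-fold (0.82 ± 0.17, adjusted p = 0.00145), with 1 senescent array, shp107 replicate 2, inside the low-serum range. CDKN1C, which encodes p57, differed by -0.65 ± 0.11 in the probe set used, which was close to background, and by -2.28 in the CDKN1C probe set that exceeded 5 on at least 2 of the 12 arrays. CDKN3, whose protein is a phosphatase that acts on CDKs, differed by -0.56 ± 0.17 and was also close to background, with means of 3.60 and 4.16.

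Among 17 tested cyclins, CDKs, E2F factors and pocket proteins, 2 were at least 2-fold higher and 2 lower, with a median difference of -0.11 that was 0.10 with equal array medians. The count of higher genes was 4 with equal array medians and 1 without low-serum MLP replicate 1 or without any one of the 4 shp107 arrays. E2F7, an E2F repressor, had values of 10.65, 11.17 and 11.46 in senescent arrays, against 4.55, 5.70 and 6.94 in low-serum arrays, a difference of 5.40 ± 0.31 (adjusted p = 2.07e-08), and growing cells held 6.27 to 7.20. Senescent arrays were thus above all arrays of the low-serum and growing states. CDK6, the G1 kinase, had values of 7.49, 8.63 and 9.10 in senescent arrays, against 10.27, 10.91 and 11.02 in low-serum arrays, a difference of -2.32 ± 0.15. The dimerization partner TFDP2 differed by -2.04 ± 0.24 in the probe set used, while a second TFDP2 probe set showed 0.21. Cyclin D1, CCND1, rose by 0.81 ± 0.15 (adjusted p = 0.000595) in the probe set used and differed by 1.35 in a second, also well-expressed one. RB1 had values of 9.04, 9.38 and 9.90 in senescent arrays, against 9.59, 9.83 and 9.98 in low-serum arrays, with a difference of -0.35 ± 0.16 that did not pass (adjusted p = 0.0757).

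Genes of DNA synthesis were on average below the growing level in low serum and lower still in senescent cells. The mean over the DNA replication list lay between 5.63 and 6.06 in senescent arrays, 6.24 and 6.57 in low-serum arrays and 7.34 and 7.71 in growing arrays. Of 36 tested DNA replication genes, 10 fell at least 2-fold and 0 rose that much, with a median difference of -0.34. After quantile normalization or with equal array medians 6 fell, a share close to that of all genes under those scalings. The median difference was then -0.29 and -0.13. MCM6, a subunit of the replicative helicase, had values of 5.98, 6.65 and 7.31 in senescent arrays, against 8.78, 8.91 and 9.31 in low-serum arrays, a difference of -2.29 ± 0.18 (adjusted p = 3.49e-07), against 9.40 to 9.62 in growing cells. TYMS, thymidylate synthase, had values of 6.72, 7.29 and 8.0 in senescent arrays, against 9.28, 9.54 and 10.12 in low-serum arrays, a difference of -2.22 ± 0.23. GMNN, which encodes the licensing inhibitor geminin, differed by -2.36 ± 0.28, the clamp loader subunit RFC4 by -1.98 ± 0.21 and the maintenance methylation factor UHRF1 by -1.76 ± 0.22. In these 5 genes no senescent array reached the low-serum range.

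Of 45 tested mitosis genes, 8 fell at least 2-fold and 0 rose that much (1 with equal array medians), with a median of -0.54. The share is close to that of all genes. In bulk RNA, fewer dividing cells and less RNA per cell cannot be told apart. Without low-serum MLP replicate 1 the count was 13. ANLN, the cytokinesis protein anillin, had values of 5.56, 7.04 and 7.96 in senescent arrays, against 9.13, 9.99 and 10.54 in low-serum arrays, a difference of -2.99 ± 0.36 (adjusted p = 1.7e-05). TOP2A, the DNA topoisomerase of dividing cells, had values of 4.51, 4.78 and 5.12 in senescent arrays, against 6.38, 7.36 and 8.56 in low-serum arrays, a difference of -2.51 ± 0.31, and in growing cells it held 9.48 to 10.30. NUSAP1, a spindle protein, differed by -2.77 ± 0.29 and CDK1, the mitotic kinase, by -1.83 ± 0.28. Senescent arrays were the lower in each. CCNB1, cyclin B1, had values of 6.12, 6.82 and 7.46 in senescent arrays, against 6.34, 7.46 and 8.17 in low-serum arrays with overlapping arms, and its difference of -0.54 ± 0.28 did not pass (adjusted p = 0.122). The mean over the mitosis list lay between 4.64 and 5.16 in senescent arrays, 5.31 and 6.10 in low-serum arrays and 7.68 and 8.29 in growing arrays.

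**Figure D2:**
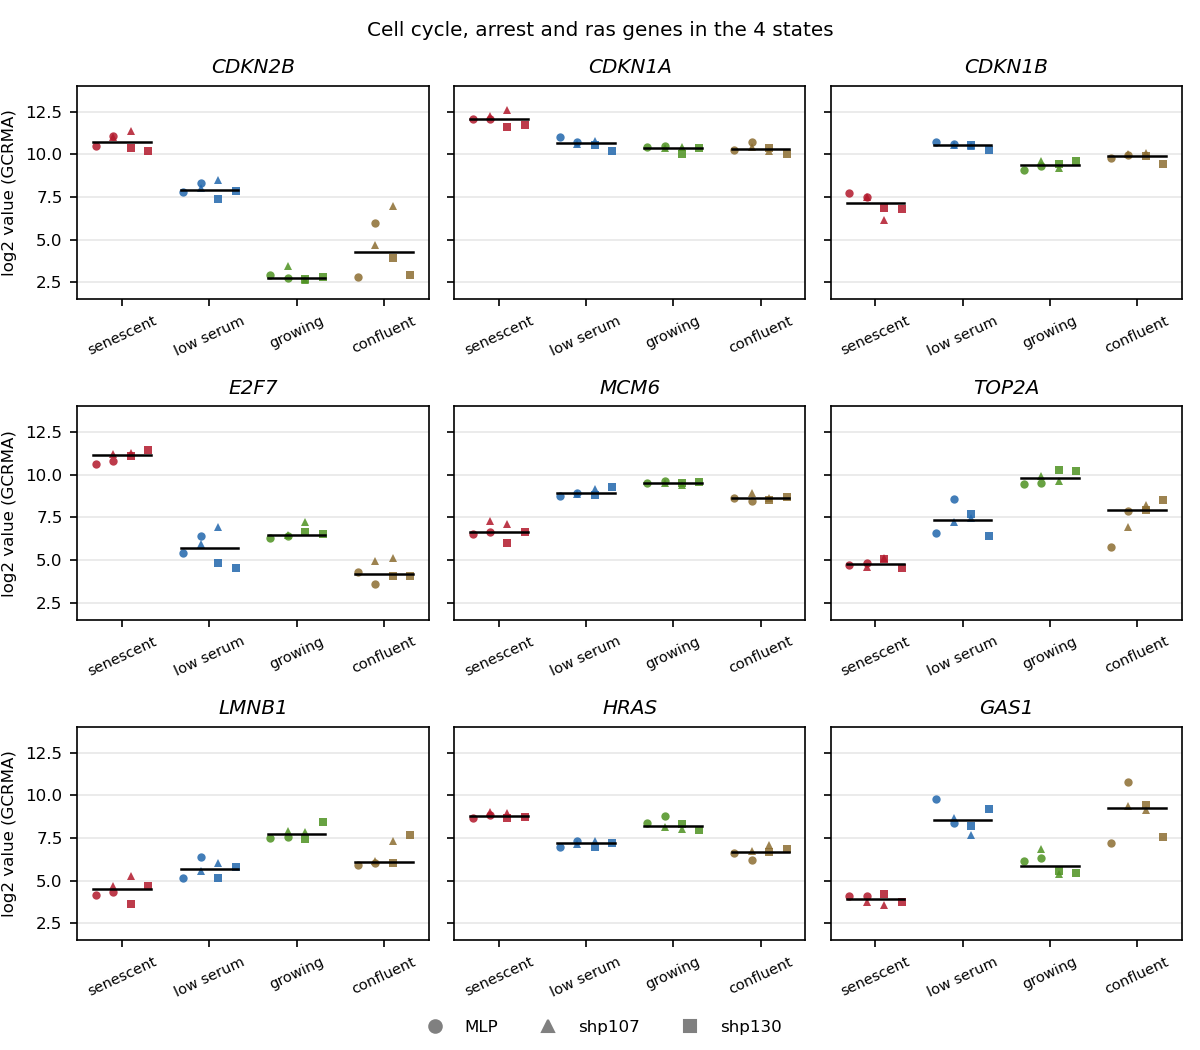
Log2 expression values (y axis) of 9 genes in senescent, low-serum, growing and confluent cells, 6 arrays a state with the hairpin as symbol shape and a black line at the median. CDKN2B runs from 10.21 to 11.39 in senescent, 7.40 to 8.47 in low-serum and 2.60 to 3.44 in growing cells, while CDKN1B is lower in senescent cells than in the other 3 states.

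Of 19 tested lamina and chromatin genes, 8 fell at least 2-fold and 2 rose, with a median of -0.43. LMNB1, which encodes lamin B1, had values of 3.61, 4.49 and 5.24 in senescent arrays, against 5.15, 5.67 and 6.40 in low-serum arrays, a difference of -1.23 ± 0.25 (adjusted p = 0.00113). The highest senescent array was just inside the low-serum range, and growing cells held 7.45 to 8.41. LBR, the lamin B receptor, had values of 5.42, 6.94 and 7.35 in senescent arrays, against 9.01, 9.42 and 9.72 in low-serum arrays, a difference of -2.70 ± 0.20, with no overlap. HMGB2, a DNA-bending chromatin protein, had values of 5.21, 7.06 and 8.84 in senescent arrays, against 9.97, 10.35 and 10.72 in low-serum arrays and differed by -3.28 ± 0.43, and the chromatin remodeller HELLS differed by -1.70 ± 0.18. The 2 that rose were HMGA1 (1.42 ± 0.21) and HMGA2 (1.55 ± 0.17), architectural proteins found in the heterochromatin foci of senescent cells. Among 12 tested histone genes, 5 rose at least 2-fold and 0 fell. H2BC21 had values of 8.08, 8.33 and 8.77 in senescent arrays, against 4.13, 4.74 and 5.12 in low-serum arrays, a difference of 3.73 ± 0.18, and H4C8 of 6.77, 7.93 and 8.49 in senescent arrays, against 4.86, 5.15 and 5.23 in low-serum arrays, a difference of 2.72 ± 0.22. Near-identical histone genes may share probe signal.

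Chemokines, the secreted proteins that attract leukocytes, showed the largest list difference. Of 11 tested chemokine and receptor genes, 8 rose at least 2-fold and 2 fell (1 with equal array medians), with a median of 6.33. The risers that bind the receptors of neutrophils, CXCL1, CXCL2, CXCL3, CXCL5, CXCL6 and CXCL8, had promoters in the RefSeq table (GRCh38.p14), as did 10 of the 11 tested genes of the list. All 6 hold the letters GGAATTTCC, a form of the site that NF-kB factors bind, on the strand of the gene. These 6 are shown because they rose together and because the same letters stand at nearly the same distance from their starts, with their first base between -91 and -77 relative to the start. The letters were searched on both strands in windows of 300 bases, 250 of them upstream of the start, and 162 of 35116 promoters in the table, 0.461%, hold them. The 4 other listed genes with a promoter, CXCL12, CCL7, CCL20 and CXCR4, do not hold these letters in this window. The stretches of CXCL1, CXCL2 and CXCL3 below are nearly alike throughout, as are those of CXCL5 and CXCL6. The 6 matches are therefore not separate observations to set against the share of all promoters. A match is a description of sequence and not a site or a cause. Each line gives 60 bases that end at -66 relative to the start, read 5′ to 3′ on the strand of the gene, with the searched letters in capitals.
CXCL1 (chr4:73869268-73869327, + strand): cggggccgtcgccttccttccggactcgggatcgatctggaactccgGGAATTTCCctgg
CXCL2 (chr4:74099261-74099320, - strand): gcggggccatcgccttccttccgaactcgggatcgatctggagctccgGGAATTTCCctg
CXCL3 (chr4:74038755-74038814, - strand): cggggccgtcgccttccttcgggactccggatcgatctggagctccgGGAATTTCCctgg
CXCL5 (chr4:73998743-73998802, - strand): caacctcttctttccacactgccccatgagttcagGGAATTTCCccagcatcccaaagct
CXCL6 (chr4:73836553-73836612, + strand): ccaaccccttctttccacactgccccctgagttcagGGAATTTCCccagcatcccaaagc
CXCL8 (chr4:73740444-73740503, + strand): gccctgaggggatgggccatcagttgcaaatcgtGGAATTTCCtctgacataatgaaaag

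Beside these sequences, CXCL5 had values of 11.92, 12.22 and 12.43 in senescent arrays, against 3.25, 3.43 and 3.55 in low-serum arrays, a difference of 8.79 ± 0.12 (adjusted p = 5.08e-14). CXCL3 had values of 11.50, 11.77 and 12.05 in senescent arrays, against 3.40, 3.76 and 4.08 in low-serum arrays, a difference of 8.01 ± 0.14. CXCL1 differed by 7.53 ± 0.36, with low-serum MLP replicate 1 the highest of its arm at 6.25, and CXCL2 by 7.34 ± 0.18. Every senescent array of these 4 was far above every low-serum array. CXCL8, which encodes interleukin 8, was not at background in low serum, with values of 12.71, 12.79 and 12.94 in senescent arrays, against 5.05, 6.65 and 7.67 in low-serum arrays and a difference of 6.33 ± 0.30. CXCL6 had values of 8.58, 9.37 and 10.62 in senescent arrays, against 2.98, 3.33 and 4.18 in low-serum arrays, a difference of 6.09 ± 0.29. CXCL1, CXCL2 and CXCL3 are close copies, so their probe sets may share signal.

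These genes are neighbours on chromosome 4. From CXCL8 to EREG in the RefSeq gene order, 10 genes were tested. All 10 were called higher in senescent cells, beside 24.5% of all tested genes, and 9 at least 2-fold, beside 9.81%. PPBP, in both counts, and PF4V1, in the first, did not exceed 5 on 2 of the 12 arrays. The stretch was chosen after its values were seen, so the counts are a description and no test of it. It also holds PPBP, a platelet chemokine (3.47, 4.63 and 5.73 in senescent arrays, against 2.41, 2.51 and 2.64 in low-serum arrays, a difference of 2.14 ± 0.28), PF4V1 (3.19, 3.44 and 4.49 in senescent arrays, against 2.40, 2.77 and 2.96 in low-serum arrays, 0.96 ± 0.21) and MTHFD2L, a mitochondrial folate enzyme (5.12, 7.10 and 7.74 in senescent arrays, against 3.68, 4.17 and 4.45 in low-serum arrays, 2.69 ± 0.34). EREG, which encodes the EGF receptor ligand epiregulin, had values of 10.79, 10.94 and 11.20 in senescent arrays, against 3.09, 3.24 and 3.78 in low-serum arrays, a difference of 7.68 ± 0.13. The 3 nearest tested genes before the stretch, SLC4A4, COX18 and ANKRD17, differed by -1.07 ± 0.18, -1.19 ± 0.18 and 0.76 ± 0.22, and the 3 after it, RCHY1, THAP6 and G3BP2, by 0.58 ± 0.21, 0.47 ± 0.15 and -0.16 ± 0.13. None of these 6 flanking genes rose 2-fold.

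The remaining members of the chemokine list were mixed. CCL20, a ligand for CCR6 on lymphocytes, had values of 7.91, 10.20 and 10.39 in senescent arrays, against 3.06, 3.41 and 3.60 in low-serum arrays, a difference of 6.39 ± 0.31. CXCR4, the receptor for CXCL12, had values of 7.16, 8.64 and 10.76 in senescent arrays, against 2.69, 2.85 and 3.14 in low-serum arrays, a difference of 5.96 ± 0.37, and no growing or confluent array was above 3.32. Of the RB-intact arrays only the senescent ones exceeded 5, so CXCR4 passed the filter through them, as did L1CAM below. Their place among the risers of their lists is a description. CXCL12 itself fell, with values of 3.75, 4.15 and 4.35 in senescent arrays, against 4.85, 5.10 and 5.74 in low-serum arrays and a difference of -1.13 ± 0.17. The monocyte attractant CCL2 had values of 5.76, 7.23 and 10.73 in senescent arrays, against 9.06, 9.91 and 10.36 in low-serum arrays, with overlapping arms and a wide senescent spread, and fell by 2.33 ± 0.60 (adjusted p = 0.00506).

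Among 19 tested interleukins and receptors, 9 rose at least 2-fold and 5 fell, with a median of 0.63. IL1A, the membrane-bound interleukin 1, had values of 10.20, 10.78 and 11.36 in senescent arrays, against 2.56, 3.12 and 3.29 in low-serum arrays, a difference of 7.77 ± 0.18 (adjusted p = 4.95e-12). IL6 had values of 10.71, 10.90 and 11.96 in senescent arrays, against 4.09, 4.66 and 5.35 in low-serum arrays, a difference of 6.33 ± 0.24, and IL11, of the same cytokine family, 10.87, 11.35 and 11.86 in senescent arrays, against 5.78, 6.52 and 6.89 in low-serum arrays, a difference of 4.90 ± 0.20. IL13RA2, a decoy receptor for interleukin 13, differed by 7.37 ± 0.13. In each of these the arms did not overlap. TSLP, an epithelial-type cytokine, went the other way, with values of 4.0, 5.05 and 5.70 in senescent arrays, against 8.92, 9.55 and 10.23 in low-serum arrays and a difference of -4.64 ± 0.27, as did LIFR, the receptor of leukemia inhibitory factor (4.28, 4.83 and 5.22 in senescent arrays, against 6.84, 8.21 and 8.99 in low-serum arrays, a difference of -3.31 ± 0.38).

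Of 21 tested TNF-family and NF-kB genes, 10 rose at least 2-fold and 2 fell, with a median of 0.95. The adhesion molecule ICAM1 had values of 7.86, 8.62 and 10.24 in senescent arrays, against 4.11, 4.68 and 5.01 in low-serum arrays, a difference of 4.44 ± 0.27 (adjusted p = 3.1e-08). The feedback inhibitors of NF-kB rose too, TNFAIP3 (A20) by 2.83 ± 0.18 and NFKBIA (IkB alpha) by 1.51 ± 0.18, and the interleukin 1 receptor kinase IRAK2 by 3.66 ± 0.15. The arms did not overlap in these 4 genes. TNFSF4, which encodes OX40 ligand, fell, with values of 3.49, 3.75 and 3.99 in senescent arrays, against 8.41, 9.29 and 9.90 in low-serum arrays and a difference of -5.53 ± 0.21. ICAM1 and VCAM1, both leukocyte adhesion molecules, thus differed in opposite directions.

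Of 19 tested matrix proteases and their inhibitors, 10 rose at least 2-fold and 3 fell, with a median of 1.11. Interstitial collagenase MMP1 had values of 13.25, 13.39 and 13.58 in senescent arrays, against 6.52, 8.20 and 9.43 in low-serum arrays, a difference of 5.27 ± 0.33 (adjusted p = 4.6e-08). The plasminogen activators PLAT and PLAU differed by 2.65 ± 0.29 and 2.11 ± 0.14, and the urokinase receptor PLAUR by 2.88 ± 0.22. Senescent arrays were the higher in all 4, with no overlap. The aggrecanase ADAMTS5 fell, with values of 4.36, 4.87 and 6.22 in senescent arrays, against 9.22, 9.75 and 10.61 in low-serum arrays and a difference of -4.85 ± 0.26, and ADAMTS1 fell by 1.54 ± 0.20.

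**Figure D3:**
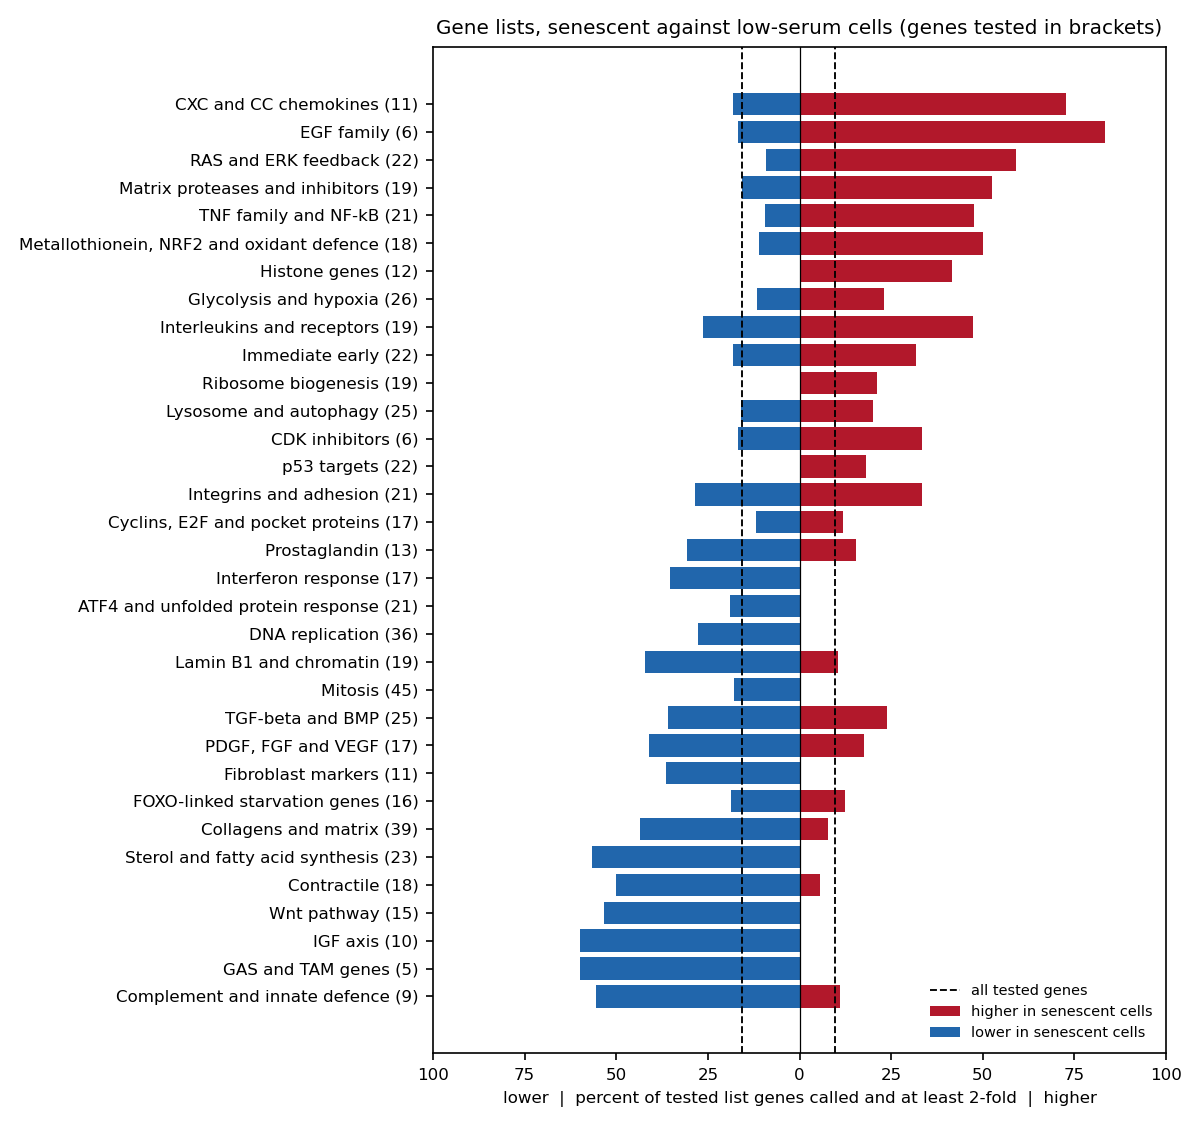
Percent of the tested genes of each list that were called and at least 2-fold higher (red, to the right) or lower (blue, to the left) in senescent than in low-serum cells. Lists with 5 or more tested genes are ordered by median difference from top to bottom, and dashed lines mark all tested genes, 9.81% higher and 15.7% lower.

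Among EGF family genes, which include ligands, a receptor and an inhibitor, and the feedback genes of the RAS to ERK pathway, more genes rose than fell. Of 6 tested EGF family genes, 5 rose at least 2-fold and 1 fell, with a median of 1.78. NRG1, neuregulin 1, had values of 8.0, 9.36 and 10.78 in senescent arrays, against 3.54, 3.79 and 4.20 in low-serum arrays, a difference of 5.50 ± 0.30, and ERRFI1, a feedback inhibitor of the EGF receptor, differed by 1.98 ± 0.14. The receptor gene ERBB2 fell, with values of 3.53, 3.83 and 3.96 in senescent arrays, against 5.44, 5.55 and 5.77 in low-serum arrays and a difference of -1.81 ± 0.13. Of 22 tested RAS and ERK feedback genes, 13 rose at least 2-fold and 2 fell, with a median of 1.49. Without senescent MLP replicate 1, or after either rescaling, 1 fell. SPRY4, a sprouty inhibitor, had values of 7.66, 8.02 and 8.12 in senescent arrays, against 3.20, 3.47 and 3.83 in low-serum arrays, a difference of 4.43 ± 0.14 (adjusted p = 9e-11). SPRY2 differed by 3.29 ± 0.16 and SPRED2 by 2.64 ± 0.14. The nuclear ERK phosphatases DUSP4 and DUSP5 had values of 7.62, 8.56 and 9.39 in senescent arrays, against 4.03, 4.35 and 4.51 in low-serum arrays and of 9.15, 9.90 and 10.39 in senescent arrays, against 5.38, 6.30 and 6.74 in low-serum arrays, with differences of 4.28 ± 0.23 and 3.62 ± 0.19. None of these 5 overlapped between the arms, and growing cells held 4.73 to 5.83 for SPRY4 and 4.14 to 4.83 for DUSP4.

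Immediate early genes are known to respond to serum. Their list mean lay between 8.14 and 8.40 in senescent, 7.70 and 7.87 in low-serum and 8.09 and 8.20 in growing arrays. The part of serum in the differences below was not tested. Of 22 tested here, 7 were at least 2-fold higher in senescent cells and 4 lower, with a median of 0.45. NR4A2, a nuclear receptor, had values of 5.99, 8.06 and 8.85 in senescent arrays, against 3.50, 4.42 and 5.94 in low-serum arrays, a difference of 3.07 ± 0.33, and in growing cells 6.36 to 9.36. EGR3 differed by 2.73 ± 0.23, JUNB by 2.25 ± 0.24 and MYC by 1.46 ± 0.15. The lower ones were FOSL2 (-1.82 ± 0.19), KLF4 (-1.87 ± 0.30), KLF2 (-1.35 ± 0.17) and CCN1 (-1.35 ± 0.15).

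More matrix and contractile genes fell than rose. Of 39 tested collagen and matrix genes, 17 fell at least 2-fold and 3 rose, with a median of -0.89. DCN, which encodes the proteoglycan decorin, had values of 8.23, 8.89 and 10.01 in senescent arrays, against 12.90, 13.07 and 13.28 in low-serum arrays, a difference of -4.13 ± 0.23 (adjusted p = 1.42e-08). COL3A1, a fibrillar collagen, had values of 9.03, 9.84 and 11.48 in senescent arrays, against 12.64, 12.82 and 13.13 in low-serum arrays, a difference of -2.75 ± 0.27, with senescent arrays spread over more than 2 log2 units. FBLN1 and FBLN5, elastic fibre proteins, differed by -4.36 ± 0.19 and -3.65 ± 0.35. Lumican, LUM, differed by -2.60 ± 0.17. All 5 were without overlap. For the major collagen chains the size depended on the probe set. COL1A1 differed by -0.44 ± 0.11 in the brightest, the one tested, and by -1.21, -2.63 and -1.11 in the others above the filter. COL1A2 differed by -0.89 ± 0.16 in the brightest and by -1.67 and -4.47 in the others. Fibronectin, FN1, did not pass (-0.06 ± 0.11, adjusted p = 0.686) in a probe set at 12.86 in senescent and 12.92 in low-serum arrays, near the top of the scale, while 2 dimmer FN1 probe sets differed by 0.92 and 0.60. COL10A1, a collagen of growth plate cartilage, rose, with values of 6.32, 7.67 and 9.07 in senescent arrays, against 3.39, 3.68 and 3.92 in low-serum arrays and a difference of 4.05 ± 0.28. Among 11 fibroblast markers 4 fell at least 2-fold, namely COL3A1, DCN, LUM and PDGFRB, and 0 rose.

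Of 18 tested contractile genes, 9 fell at least 2-fold and 1 rose, with a median of -1.08. Smooth muscle actin ACTA2, the myofibroblast marker, had values of 10.23, 10.33 and 11.01 in senescent arrays, against 12.49, 12.75 and 12.87 in low-serum arrays, a difference of -2.20 ± 0.13 (adjusted p = 3.55e-08). CNN1, calponin, had values of 3.68, 3.98 and 4.35 in senescent arrays, against 8.88, 9.61 and 9.80 in low-serum arrays, a difference of -5.48 ± 0.16, with senescent arrays at background. TAGLN, transgelin, differed by -2.41 ± 0.13, ACTG2 by -2.39 ± 0.12 and leiomodin LMOD1 by -3.58 ± 0.12. The exception was smoothelin, SMTN, which rose by 1.81 ± 0.16. Of 21 tested integrin and adhesion genes, 7 rose at least 2-fold and 6 fell. L1CAM, a neural cell adhesion molecule, had values of 6.01, 7.60 and 8.07 in senescent arrays, against 2.29, 2.54 and 3.27 in low-serum arrays, a difference of 4.59 ± 0.23, and was at or below 3.07 in growing cells, while the collagen receptor subunit ITGA1 differed by -2.54 ± 0.39.

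In several growth factor lists more genes fell than rose. Of 10 tested IGF axis genes, 6 fell at least 2-fold and 0 rose, with a median of -1.21. IGFBP3, a carrier of insulin-like growth factors, had values of 8.47, 9.25 and 10.48 in senescent arrays, against 12.27, 12.51 and 12.67 in low-serum arrays, a difference of -3.13 ± 0.21 (adjusted p = 9.1e-08). The adaptor IRS2 differed by -2.71 ± 0.23, IRS1 by -1.28 ± 0.16, the receptor IGF1R by -1.34 ± 0.20 and IGFBP2 by -2.10 ± 0.41, the last with overlapping arms. Of 17 tested PDGF, FGF and VEGF genes, 7 fell at least 2-fold and 3 rose, with 5 higher under equal array medians. PDGFD, a platelet-derived growth factor, had values of 3.28, 3.61 and 3.73 in senescent arrays, against 8.58, 9.49 and 9.95 in low-serum arrays, a difference of -5.77 ± 0.22, and was between 3.78 and 4.76 in growing cells, so its high level was found in low serum. The receptor genes MET and PDGFRB fell by 2.43 ± 0.20 and 1.56 ± 0.15, and the lymphatic factor VEGFC rose by 1.93 ± 0.15. GAS1 and GAS6, named as growth arrest-specific genes, were lower in senescent cells. GAS1 had values of 3.59, 3.90 and 4.20 in senescent arrays, against 7.69, 8.53 and 9.75 in low-serum arrays, a difference of -4.75 ± 0.26, and GAS6, the ligand of the receptor AXL, 7.40, 7.88 and 9.41 in senescent arrays, against 12.37, 12.63 and 13.03 in low-serum arrays, a difference of -4.57 ± 0.28, with AXL itself at -1.25 ± 0.14.

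The TGF-beta and BMP list was split, with 6 of 25 tested genes at least 2-fold higher and 9 lower. BMP2 had values of 11.04, 11.36 and 11.39 in senescent arrays, against 3.99, 4.27 and 4.58 in low-serum arrays, a difference of 6.98 ± 0.13 (adjusted p = 4.36e-13), and BMP4 had values of 3.10, 3.13 and 3.22 in senescent arrays, against 4.62, 7.24 and 8.36 in low-serum arrays, a difference of -3.84 ± 0.41. The 2 ligands thus differed in opposite directions. The BMP targets ID1 and ID3 rose by 2.55 ± 0.29 and 3.02 ± 0.30, as did the inhibitor SMAD7 by 2.79 ± 0.32, whereas ID2 fell by 3.06 ± 0.33, SMAD9 fell by 3.15 ± 0.36 and TGFB2 fell by 3.61 ± 0.16. Growing cells held 7.75 to 10.20 for ID1 and 9.99 to 11.25 for ID3, so that senescent ID3 lay below every growing array. Of 15 tested Wnt pathway genes, 8 fell at least 2-fold and 0 rose, with a median of -1.19. The receptor ROR1 had values of 2.89, 3.36 and 3.78 in senescent arrays, against 8.73, 9.10 and 9.50 in low-serum arrays, a difference of -5.78 ± 0.17. The Wnt receptors FZD2 and FZD7 differed by -3.83 ± 0.15 and -3.59 ± 0.23, and CCN4, a matricellular Wnt target, by -4.66 ± 0.52.

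Metabolic genes differed between the states as well. Of 23 tested genes of sterol and fatty acid synthesis, 13 fell at least 2-fold and 0 rose, with a median of -1.03. ACAT2, which makes acetoacetyl-CoA, had values of 5.38, 5.53 and 5.93 in senescent arrays, against 9.42, 10.27 and 11.01 in low-serum arrays, a difference of -4.59 ± 0.27 (adjusted p = 2.31e-08). HMGCS1, HMG-CoA synthase, had values of 6.85, 7.18 and 7.59 in senescent arrays, against 9.21, 9.90 and 10.88 in low-serum arrays, a difference of -2.83 ± 0.27, against 6.10 to 6.93 in growing cells. SCD, the stearoyl-CoA desaturase, differed by -3.0 ± 0.14, STARD4 by -3.15 ± 0.28 and lanosterol synthase LSS by -2.06 ± 0.17. For HMGCS1, SCD and LSS the senescent and growing ranges overlapped and the low-serum arrays were above both. The mean over the list was 7.0 to 7.27 in senescent, 8.18 to 8.88 in low-serum and 6.66 to 6.96 in growing arrays.

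Of 21 tested genes of the ATF4 and unfolded protein response, 4 fell at least 2-fold and 0 rose that much (1 after either rescaling or without low-serum shp130 replicate 1). The share that fell, 19%, is close to the 15.7% of all tested genes. Among those that fell were the serine and asparagine synthesis genes PHGDH (-3.70 ± 0.18) and ASNS (-3.02 ± 0.21). Of 26 tested glycolysis and hypoxia genes, 6 rose at least 2-fold and 3 fell, with 10 higher under equal array medians. Hexokinase 2, HK2, had values of 10.61, 10.66 and 10.73 in senescent arrays, against 7.90, 8.26 and 9.06 in low-serum arrays, a difference of 2.30 ± 0.14, and neuronal enolase ENO2 differed by 2.51 ± 0.25. The glucose transporter SLC2A1 fell, with values of 5.16, 5.45 and 5.67 in senescent arrays, against 7.40, 7.76 and 7.98 in low-serum arrays and a difference of -2.29 ± 0.14, and STC2 fell by 2.69 ± 0.24. Of 16 tested FOXO-linked starvation genes, 2 rose at least 2-fold and 3 fell, close to the shares of all genes, and 5 fell without senescent shp107 replicate 1. Among those that fell was the stress protein SESN3 with values of 3.37, 3.59 and 3.98 in senescent arrays, against 6.09, 7.0 and 8.38 in low-serum arrays and a difference of -3.58 ± 0.28. Of 19 tested ribosome biogenesis genes, 4 rose and 0 fell at that size, including the RNA polymerase I subunit POLR1B (2.07 ± 0.26), and 7 rose with equal array medians. Of 25 tested lysosome and autophagy genes, 5 rose at least 2-fold and 4 fell, with 8 higher under equal array medians. Cathepsin S, CTSS, had values of 5.54, 6.83 and 8.12 in senescent arrays, against 3.23, 3.31 and 3.53 in low-serum arrays, a difference of 3.48 ± 0.30, the cholesterol exporter NPC1 differed by 2.84 ± 0.18 and alpha-galactosidase GLA by 2.40 ± 0.13, while the autophagy protein GABARAPL1 fell by 2.76 ± 0.15.

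Of 22 tested p53 targets, 4 rose at least 2-fold and 0 fell (1 without senescent shp107 replicate 2), with CDKN1A described above. GDF15, a stress-induced cytokine, had values of 12.35, 12.50 and 12.68 in senescent arrays, against 6.64, 7.75 and 8.05 in low-serum arrays, a difference of 4.99 ± 0.18 (adjusted p = 2.78e-10), and PLK3 differed by 2.25 ± 0.19. Of 17 tested interferon response genes, 6 fell at least 2-fold and 0 rose (1 after either rescaling). IFI6 had values of 2.93, 3.53 and 3.93 in senescent arrays, against 6.41, 7.59 and 8.68 in low-serum arrays, a difference of -4.04 ± 0.34, and GBP1, a guanylate-binding protein, had values of 4.69, 7.07 and 7.38 in senescent arrays, against 10.13, 10.89 and 11.36 in low-serum arrays, a difference of -4.42 ± 0.27. Among 9 tested complement and innate defence genes 5 fell at least 2-fold, led by the first-component proteases C1R (3.44, 3.75 and 4.07 in senescent arrays, against 8.28, 9.17 and 10.02 in low-serum arrays, a difference of -5.35 ± 0.24) and C1S (-5.17 ± 0.40), and 1 rose, C3 (1.82 ± 0.25). In the prostaglandin list of 13 tested genes, 2 rose at least 2-fold, PTGS2 and the phospholipase PLA2G4A (1.87 ± 0.23), and 4 fell, among them the prostaglandin E2 receptor PTGER2 (-3.49 ± 0.27).

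**Figure D4:**
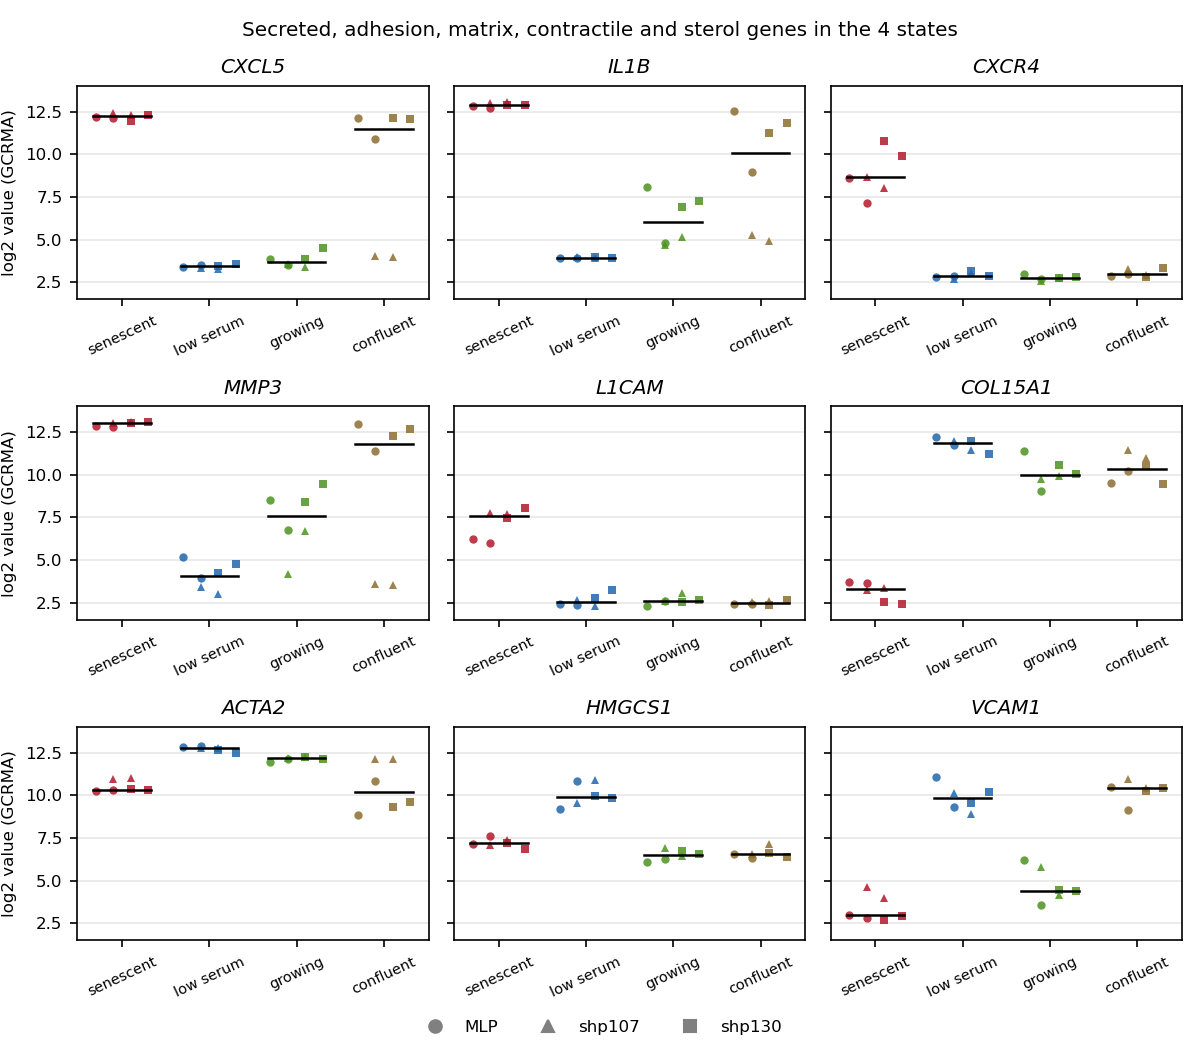
Log2 expression values (y axis) of 9 genes in senescent, low-serum, growing and confluent cells, 6 arrays a state with the hairpin as symbol shape and a black line at the median. IL1B, CXCL5 and MMP3 are also high on some confluent arrays, and HMGCS1 is high in low serum alone. CXCR4 and L1CAM are high in senescent cells alone among these 4 states, and passed the filter through those arrays.

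Growing and confluent cells give these differences a scale. In 643 of the 835 genes at least 2-fold higher in senescent cells the growing mean was nearer to the low-serum mean, and so it was in 955 of the 1338 lower genes. In the other genes the growing mean was nearer to the senescent mean. STC1 is an example, at 9.44 to 11.25 in growing cells, and so is VCAM1, at 3.54 to 6.18. The inflammatory rises were not peculiar to senescent cells in level. At confluence CXCL5 held 3.99 to 12.14, IL1B 4.90 to 12.53, IL6 7.22 to 13.38 and MMP3 3.52 to 12.99, ranges that reach values as high as or close to those of senescent cells. The 2 confluent shp107 arrays were the lowest of that state for CXCL5 and MMP3. CXCR4, in contrast, held 2.82 to 3.32 at confluence, ICAM1 4.05 to 6.21, TOP2A 5.78 to 8.50 and CDKN1B 9.44 to 10.09. These confluent values are given as levels, without a test.

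The 3 kinds of RB-intact cell were then compared for the size of the state difference. An F test over the 6 groups called 147 genes (1.73%), with 1531 at an unadjusted p under 0.05. The count was 172 without senescent shp107 replicate 2, but between 19 and 1149 with other single arrays left out, so the set is loosely determined. Taken alone, MLP cells gave 3277 calls between the states, shp107 cells 3598 and shp130 cells 3696. The 4 genes with the largest F were ROMO1, POLR2L, PET100 and ATP5ME, which encode small mitochondrial or polymerase proteins. ROMO1 had senescent values of 10.17 and 10.03 in MLP, 7.78 and 7.60 in shp107 and 10.09 and 10.16 in shp130 cells, and low-serum values of 8.88 and 8.54 in MLP, 10.25 and 10.24 in shp107 and 10.33 and 10.29 in shp130 cells (adjusted p = 0.000557). The senescent shp107 pair and the low-serum MLP pair were low in all 4 genes. Whether those 4 arrays were processed apart from the others, and its part in the hairpin differences of these genes and of the metallothioneins, was not tested.

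Metallothioneins, small metal-binding proteins, belong to a list of 18 tested metallothionein, NRF2 and oxidant defence genes, of which 9 rose at least 2-fold and 2 fell (1 with equal array medians), and 6 were called for hairpin differences. MT1F had senescent values of 11.59 and 11.58 in MLP, 9.67 and 9.23 in shp107 and 11.59 and 11.59 in shp130 cells, and low-serum values of 7.60 and 7.69 in MLP, 8.20 and 9.12 in shp107 and 8.46 and 8.71 in shp130 cells. The rise of MT1F was 3.94 in MLP, 0.79 in shp107 and 3.01 in shp130 cells, and the hairpin difference was called (adjusted p = 0.00963). MT1X followed with 2.94 in MLP, 0.85 in shp107 and 2.11 in shp130 cells (adjusted p = 0.0216), MT2A with 2.67 in MLP, 0.83 in shp107 and 1.52 in shp130 cells (adjusted p = 0.0237) and MT1E with 3.38 in MLP, -0.17 in shp107 and 1.85 in shp130 cells (adjusted p = 0.00767). The same 2 pairs of arrays that were low in ROMO1 were lowest of their state here, and the part of that in the metallothionein values was not tested. The cystine transporter SLC7A11, in the same list, fell, with values of 6.37, 7.44 and 8.37 in senescent arrays, against 11.07, 11.18 and 11.77 in low-serum arrays and a difference of -3.88 ± 0.27.

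In 3 named genes senescent shp130 cells stood apart. NEFL, a neurofilament gene, had values of 5.22 and 4.80 in MLP, 6.08 and 6.82 in shp107 and 7.68 and 7.77 in shp130 senescent cells, against 3.32 to 3.55 in all low-serum cells (adjusted p = 0.0155). CES1, a carboxylesterase, ran the same way, with 5.03 and 4.33 in MLP, 6.50 and 5.66 in shp107 and 8.38 and 8.62 in shp130 senescent cells, against 3.44 to 3.68 in all low-serum cells (adjusted p = 0.00695). GBP1 was lowest in senescent shp130 cells, at 4.69 and 4.88, against 6.97 to 7.38 in the other senescent arrays (adjusted p = 0.0202). CXCL8 lay between 12.71 and 12.94 in all senescent arrays, against low-serum values of 7.67 and 7.20 in MLP, 5.05 and 5.64 in shp107 and 6.87 and 6.43 in shp130 cells (adjusted p = 0.0254). With 1 array left out, the hairpin call was lost in 7 of 12 fits each for GBP1, CXCL8 and MT2A and in 5 each for NEFL and MT1X.

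**Figure D5:**
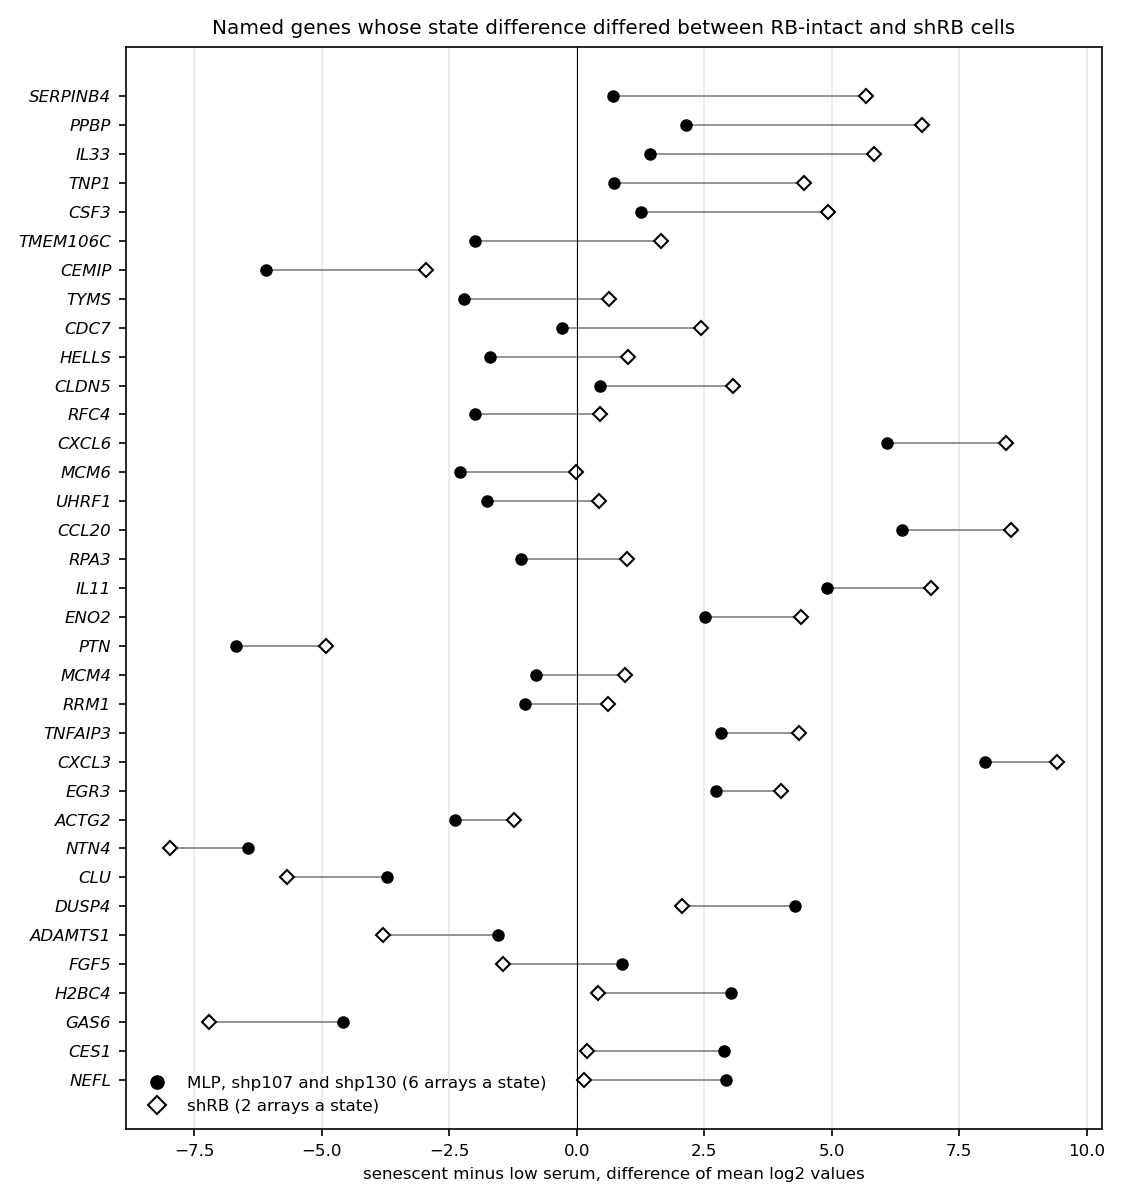
Senescent minus low-serum difference (x axis, mean log2 values) in RB-intact cells (filled circles, 6 arrays a state) and in shRB cells (open diamonds, 2 arrays a state) for the named genes in which the 2 differences differed. MCM6, TYMS, RFC4 and UHRF1 lie below 0 in RB-intact cells and near or above it in shRB cells.

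The RB-intact difference was last set against that of shRB cells in the same experiment, 4 arrays in which RB1 was 4.49 and 3.64 in senescence and 4.73 and 6.45 in low serum. The difference of differences, RB-intact minus shRB, was called for 182 genes (2.14%), of which 133 were lower (1.56%) and 49 higher (0.576%). An unadjusted p under 0.05 was reached by 1262. The count was 205 without senescent shp107 replicate 2. Without senescent shRB replicate 1, which had the higher of 2 unequal levels in several of these genes, it was 91, without senescent shp107 replicate 1 it was 369, and without low-serum shp107 replicates 1 and 2 it was 109 and 120.

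DNA replication genes supplied 8 of those called lower out of 36 tested, and mitosis genes 0 out of 45, beside 1.56% of all tested genes. The 8 include CDC7, UHRF1 and RPA3, whose limits are given below. MCM6 was 10.64 and 10.31 in senescent against 10.30 and 10.67 in low-serum shRB arrays, so the fall seen in RB-intact cells was absent from the shRB means, with a difference of -2.28 ± 0.31 (adjusted p = 0.00187). TYMS was 11.47 and 11.25 in senescent against 10.56 and 10.92 in low-serum shRB arrays (-2.84 ± 0.43, adjusted p = 0.00419). RFC4 was 9.75 and 9.94 in senescent against 9.17 and 9.61 in low-serum shRB arrays (-2.44 ± 0.37, adjusted p = 0.00404). For TYMS and RFC4 both senescent shRB arrays were above both low-serum shRB arrays, and for MCM6 the 2 states overlapped. The helicase subunit MCM4 differed by -1.75 ± 0.28, ribonucleotide reductase RRM1 by -1.62 ± 0.26, the single-strand binding protein RPA3 by -2.09 ± 0.47 and UHRF1 by -2.19 ± 0.52. The replication kinase CDC7 was close to background in RB-intact cells, with means of 3.54 in senescent and 3.82 in low-serum arrays. It did not exceed 5 on 2 of these 12 arrays and passed the filter through others, so its difference of -2.72 ± 0.28 is a description. The remodeller HELLS, of the lamina and chromatin list, differed by -2.70 ± 0.60 and TMEM106C by -3.64 ± 0.42. The calls of UHRF1 (adjusted p = 0.0486) and HELLS (adjusted p = 0.0356) were each lost in 12 of 16 fits with 1 array left out, and that of RPA3 (adjusted p = 0.0393) in 10. The list mean for DNA replication was 7.22 and 7.70 in senescent against 6.83 and 7.42 in low-serum shRB arrays, and for mitosis 4.85 and 4.87 against 5.59 and 6.74.

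Some secreted factors rose further in shRB cells. CSF3, which encodes granulocyte colony-stimulating factor, was 8.78 and 8.60 in senescent against 3.90 and 3.61 in low-serum shRB arrays, and in RB-intact cells it had values of 4.70, 5.25 and 5.88 in senescent arrays, against 3.67, 4.07 and 4.12 in low-serum arrays, so the difference was -3.68 ± 0.30 (adjusted p = 0.000175). The alarmin IL33 was 10.06 and 8.22 in senescent against 3.47 and 3.16 in low-serum shRB arrays (-4.40 ± 0.64, adjusted p = 0.00331). CXCL6 (-2.33 ± 0.36), CCL20 (-2.13 ± 0.46), IL11 (-2.05 ± 0.40) and CXCL3 (-1.41 ± 0.27) also rose more in shRB cells, with the call lost for CCL20 in 12 of 16 fits with 1 array left out, and for IL11 and CXCL3 in 3 each. IL1B (-0.16 ± 0.21, adjusted p = 0.795) and CXCL5 (-0.67 ± 0.22, adjusted p = 0.159) did not pass. CLDN5 (-2.61 ± 0.34), an endothelial claudin, was called in the same direction. PPBP, the protease inhibitor gene SERPINB4 and the germ cell gene TNP1 did not exceed 5 on 2 of the 12 RB-intact arrays and passed the filter through arrays outside those 12, the 2 senescent shRB arrays among them, so their values are a description. PPBP was 9.72 and 8.95 in senescent against 2.70 and 2.42 in low-serum shRB arrays, SERPINB4 was 10.14 and 8.27 in senescent against 3.76 and 3.31 in low-serum shRB arrays and the TNP1 difference of differences was -3.73 ± 0.35.

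In the opposite direction, H2BC4 was 4.36 and 4.11 in senescent against 3.72 and 3.93 in low-serum shRB arrays, while RB-intact cells had values of 6.35, 7.54 and 8.03 in senescent arrays, against 3.97, 4.27 and 4.82 in low-serum arrays, a difference of 2.60 ± 0.44 (adjusted p = 0.00851). NEFL was 3.68 and 3.32 in senescent against 3.40 and 3.33 in low-serum shRB arrays (2.80 ± 0.29, adjusted p = 0.000346), and CES1 was likewise near background there (2.69 ± 0.33, adjusted p = 0.0011). For both genes the RB-intact mean includes the senescent shp130 arrays, which were the highest, while the MLP arrays were the lowest, as given above. DUSP4 was 6.23 and 7.40 in senescent against 4.45 and 5.07 in low-serum shRB arrays (2.22 ± 0.45, adjusted p = 0.0217). GAS6 fell further in shRB cells, to 5.76 and 5.30 in senescent against 12.50 and 12.98 in low-serum shRB arrays (2.64 ± 0.47, adjusted p = 0.0123), as did ADAMTS1 (2.27 ± 0.33) and clusterin, CLU (1.96 ± 0.30). The growth factor FGF5 differed by 2.34 ± 0.45. With 1 array left out the call was lost in 3 of 16 fits for FGF5 and in 2 each for DUSP4 and GAS6.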

How the data were processed

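Gene expression was measured on Affymetrix arrays, and the series matrix holds log2 values that the authors deposited. Per the submitters' processing notes they come from GCRMA. Whether all arrays were normalized together, and any further step, is not stated in the labels. There are 38 columns and 54613 probe sets, of which 41091 name 1 gene, 1801 name several and 11721 name none in the annotation used. For each of 19775 genes the brightest probe set was kept, judged by the mean over all arrays. The test was limited to 8511 genes that exceeded a log2 value of 5 in 2 or more of the 32 experiment 1 arrays. Precision is set by the small number of arrays. limma 3.58.1 in R 4.3.3 fitted the 12 arrays with hairpin as a block, a moderated F test compared the state difference between MLP, shp107 and shp130 cells, and a contrast on 16 arrays compared it with shRB cells. All p-values were adjusted by the Benjamini-Hochberg method over all tested genes, and a call is an adjusted p under 0.05. The fits were tested on simulated data. Promoter sequences came from RefSeq (GRCh38.p14).

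The members and lists were chosen with earlier results of these data known. Named genes were the 12 largest rises and falls among called genes without overlap, the 3 largest called changes in each list, HRAS, the pocket protein and CDK inhibitor genes, the 4 genes with the largest F and the 6 largest differences from shRB cells in each direction. Not every gene this rule names is reported here. Further list members and the chromosome 4 neighbours were chosen after their values were seen. Other filters, scalings, probe set rules and variance models, each kind of cell alone, a replicate block and the omission of single arrays were tried as alternatives.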

Additional observations from a re-analysis of the deposited data

Results flagged for a closer look

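In 394 groups of 6 arrays examined for the named genes, 14 had an array far from the other 5, where chance flags about 1 in 20 groups. Among senescent arrays, shp107 replicate 2 was the highest for SLC6A15 (12.51) and the lowest for CDKN2A (8.35), CCL20 (7.91) and ID3 (6.22). MLP replicate 1 was the highest senescent array for PTGS2 (12.10), IL6 (11.96) and CDC7 (3.87). Among low-serum arrays, MLP replicate 1 was the highest for CXCL1 (6.25) and FZD7 (12.40) and the lowest for AXL (10.18), and MLP replicate 2 was the lowest for PRSS12 (10.42). The low-serum shp130 replicate 2 was the highest for SLC6A15 (4.79) and EREG (3.78), and the low-serum shp107 replicate 2 was the lowest for BMP4 (4.62, with the next array at 7.11).

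The senescent minus low-serum difference varied between MLP, shp107 and shp130 cells by limma's F test for ROMO1 (adjusted p = 0.000557), POLR2L and PET100 (0.000824 each), ATP5ME (0.00249), CES1 (0.00695), MT1E (0.00767), MT1F (0.00963), NEFL (0.0155), GBP1 (0.0202), MT1X (0.0216), MT2A (0.0237) and CXCL8 (0.0254).

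The difference in RB-intact cells minus that in shRB cells passed limma's test on the lower side for SERPINB4 (-4.96), PPBP (-4.64), IL33 (-4.40), TNP1 (-3.73), CSF3 (-3.68), TMEM106C (-3.64), CEMIP (-3.14), CLDN5 (-2.61), CXCL6 (-2.33), CCL20 (-2.13), IL11 (-2.05), ENO2 (-1.89), PTN (-1.77), TNFAIP3 (-1.54), CXCL3 (-1.41), EGR3 (-1.27) and ACTG2 (-1.15). Among genes of DNA synthesis and chromatin it did so for TYMS (-2.84), CDC7 (-2.72), HELLS (-2.70), RFC4 (-2.44), MCM6 (-2.28), UHRF1 (-2.19), RPA3 (-2.09), MCM4 (-1.75) and RRM1 (-1.62). On the higher side it passed for NEFL (2.80), CES1 (2.69), GAS6 (2.64), H2BC4 (2.60), FGF5 (2.34), ADAMTS1 (2.27), DUSP4 (2.22), CLU (1.96) and NTN4 (1.53). Leaving out 1 array ended the call in 12 of 16 fits for EGR3, in 11 for TNFAIP3, in 8 for ACTG2, in 5 for NTN4 and in 2 each for ENO2 and PTN. SERPINB4, PPBP, TNP1 and CDC7 did not exceed 5 on 2 of the 12 RB-intact arrays and passed the filter through arrays outside those 12, so their differences support nothing.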

How the results depend on the processing

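The number of genes called between senescent and low-serum cells was 5008 and ran from 4654 to 5313 with 1 array left out, but was 3277 in MLP cells alone. Equal array medians made 56.4% of the called genes higher, against 41.7% as reported and 51.2% after quantile normalization. Averaging all probe sets of a gene left 1391 calls of at least 2-fold, 813 of them lower. The hairpin differences were called for 372 genes with the spread of all 32 arrays of experiment 1, and for 19 to 1149 genes with 1 array left out. Leaving out a low-serum shp107 array gave 25 or 19, a low-serum shp130 array 76 or 74, a senescent MLP array 31 or 49 and a senescent shp130 array 89 or 96. The difference from shRB cells was called for 91 to 369 genes with 1 array left out. Same-numbered senescent and low-serum arrays had deviations that correlated by 0.015, 0.063 and -0.008. These values show no shared deviation, but cannot tell whether same-numbered arrays were handled together. With the replicate block 4720 genes were called between the states, 148 for hairpin differences and 199 for the difference from shRB cells, the last 2 fits having been added after the data were seen.

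Signs turned in these genes, and the cause was not tested. In MLP cells alone ROMO1 was 1.39, POLR2L 1.35 and PET100 1.56. In shp107 cells alone RB1 was 0.14, RBL1 0.19, ATP5ME -1.34, FN1 0.15 and MT1E -0.17, and in shp130 cells alone POLR2L was 0.28, SERPINB4 -0.04 and MCM4 0.10. With equal array medians POLR2L was 0.14 and FN1 0.15, and with averaged probe sets RBL1 was 0.06 and FN1 0.21. POLR2L ran from -0.26 to 0.16 with 1 array left out, at 0.16 or 0.15 without a low-serum shp107 array and 0.15 or 0.16 without a senescent one. With 1 array left out the calls between the states changed for CLDN5 (0.36 to 0.53, lost in 5 fits), RB1 (-0.45 to -0.26, gained in 2), SERPINB4 (0.42 to 0.87, gained in 3) and CDC7 (-0.33 to -0.20, changed in 1). Genes near background limit the size of a change.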
